A study of Drosophila melanogaster with 8 samples.

Results

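The genes described here are the protein-coding neighbours of sevenless (sev) on the Drosophila melanogaster X chromosome. They were taken by position: every protein-coding gene of the deposited table with a start between 10671441 and 11486299 on X, in the dm6 coordinates of the table, which is 400 kb to each side of sev (11071441 to 11086299). The sev gene itself, v and several large gene families (ribosomal proteins, cytochromes P450, chemosensory receptors and similar families) were left out. This gave 86 of the 15127 genes in the table, out of 92 protein-coding genes in the interval. Of the 86, 72 averaged at least 5 normalized counts across the libraries and were tested, 32 below sev and 40 above it.

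RNA was sequenced from retinas of female pupae 40 h after puparium formation. There were 4 libraries of the control genotype w[1118] and 4 of the genotype w[*] sev[14], which carries the sev14 allele of sevenless and a w allele that the labels leave unspecified. Each library came from polyadenylated RNA of pooled dissected retinas, per the labels' protocols. No label says that libraries of 1 genotype came from separate animals, cultures or days, so p-values reflect only how much these libraries vary, some of which may be technical. Library names follow the numbers in the column names, with W1, W2, W5 and W6 for the control, and S1, S2, S4 and S5 for sev14.

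Sevenless is the receptor tyrosine kinase that receives the signal of the R8 photoreceptor and directs a neighbouring precursor to become R7, the ultraviolet-sensitive inner photoreceptor. In its absence the R7 precursor becomes a non-neuronal cone cell, so a sev mutant retina lacks R7 cells. When a mutant stock is compared with a separately kept control stock, the chromosome segment around the mutated gene is inherited together with it, and sequence differences in that segment can change the RNA of genes that have no relation to the mutated gene. The comparison here asks how many of the genes around sev differed between the genotypes, and how that number stood beside the rest of X. The rest of X can also differ between separately kept stocks, so it is no baseline free of stock differences. Similar shares in both therefore cannot show how many differences are linked to sev.

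The libraries held between 13755813 and 19317307 recovered reads and between 10235 and 12025 genes above 0. Genes for ribosomal RNA took 12.5% of S2 and 10.1% of S5, and between 0.528% and 3.67% in the other libraries. The 7 photoreceptor markers were all detected, and their summed normalized counts were 40394 to 52299 in the control and 50468 to 65811 in sev14, although 2 of the 7 were called lower. The summed glial markers were 11341 to 16292 in the control and 8567 to 9456 in sev14, with 2 of 4 tested glial markers called lower, and fat body markers ranged from 14834 to 36448 and from 21912 to 60917, with 1 of 5 called higher. Tracheal markers summed to 1145 to 2813 in the control and 2604 to 10159 in sev14, with none of 4 called. Muscle markers were the most uneven, at 8924, 2512, 28000 and 999 in W1, W2, W5 and W6 and 1366 to 7386 in sev14, with none of 4 called. Markers of optic lobe and brain neurons summed to 3239 to 8277 and 2374 to 8630, and haemocyte markers to 90.3 to 227 and 195 to 327, none called. Testis markers summed to at most 12.4 in any library. The part of these marker differences in the results below was not tested.

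The RNA level of sev overlapped between the genotypes. The normalized counts were 222, 338, 350 and 283 in W1, W2, W5 and W6, and 202, 416, 119 and 358 in S1, S2, S4 and S5. The sev14 libraries lay on both sides of the control libraries, with S4 lowest and S2 highest. The means were 298 ± 58.3 and 274 ± 137 (SD, n = 4), a log2 difference of -0.26 (exact permutation test over 70 arrangements, 2-sided, p = 0.629), which was 0.08 without S4 (exact permutation p = 0.8) and -0.91 without S2 and S5 (exact permutation p = 0.0667, over 15 arrangements). The last p is the smallest that 15 arrangements allow, as S1 and S4 both lay below every control library. The labels do not describe the lesion in sev14, so these counts neither check nor contradict the label. The white gene (w), which encodes a transporter for eye pigment precursors and lies 8280.8 kb from sev, stood at 10.4 ± 3.88 in the control and 6124 ± 1179 in sev14 (SD, n = 4), a log2 difference of 9.12 (limma, adjusted p = 1.58e-07).

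Among the 72 tested neighbours of sev, 1 gene passed the test, Ant2, which was higher in sev14, and none was lower. That is 1.39% of the neighbours, beside 4.21% of all 10192 genes tested (2.38% higher and 1.82% lower), 4.14% of autosomal genes of the same classes and 2.73% of the other 1504 tested genes on X. The rest of X held 41 called genes, w among them, of which 23 were higher (1.53%) and 18 lower (1.2%) in sev14. The order of the neighbours and the rest of X rested on single libraries: without S4 the shares were 2.78% and 2.59%, without S5 2.78% and 2.53%, and without W5 or S1 1.39% and 1.66%. At an unadjusted p under 0.05 the neighbours held 11 genes (5 higher and 6 lower), which is 15.3%, beside 13.9% in the rest of X and 16.7% of all genes. With edgeR's quasi-likelihood test on the recovered reads the count was also 1 higher and 0 lower, beside 3.77% of all genes and 2.26% of the rest of X. With DESeq2 it was 3 higher and 0 lower (4.17%), beside 8.35% of all genes and 5.74% of the rest of X. In the authors' deposited table, 2 of the 72 neighbours had an adjusted p under 0.05 (2.78%), Ant2 and CG2157, beside 9.02% of all genes with a deposited value and 6.61% in the rest of X.

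The neighbours as a whole showed little net difference. Their median log2 difference, sev14 minus control, was 0.018, with 42 genes above 0 and 30 below, beside medians of 0.002 in the rest of X and 0.004 over all genes tested. The median absolute log2 difference was 0.199, beside 0.189 in the rest of X and 0.226 over all genes. The median SD of a neighbour between libraries was 0.222 in the control and 0.308 in sev14 on the log2 scale. The libraries of the 2 genotypes did not overlap for 5 neighbours (6.94%), beside 9.04% in the rest of X and 11.1% of all genes. These 5 were Ant2 and Sk1, which were higher in every sev14 library, and CG43155, CG15202 and CG1637, which were lower. A difference of at least 1 on the log2 scale was fitted for 6 neighbours (8.33%), beside 9.38% in the rest of X and 13.6% of all genes. Genes that were called with a mean in 1 genotype under 5% of the mean in the other numbered 0 among the neighbours and 7 in the rest of X (0.465%). Over all genes the share was 0.706%. With shares this small, 0 of 72 neighbours cannot be set apart from the rest of X. CG42249 had means of 3.42 in the control and 85.2 in sev14, but limma on all libraries did not call it. DESeq2 did, as given below.

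How tightly a difference was bounded depended on the level of the gene. The 95% interval of the log2 difference lay within 1 of 0, that is within a doubling or halving, for 50 of the 72 neighbours (69.4%), beside 70.2% in the rest of X and 63.7% of all genes. Among the 29 neighbours that averaged 1000 normalized counts or more this held for 28 genes, and their largest absolute difference was 0.46. Among the 26 with a mean between 100 and 1000 it held for 21. Among the 17 with a mean under 100 it held for 1, so most of these low genes could differ by more than a doubling or halving within their interval.

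**Figure D1:**
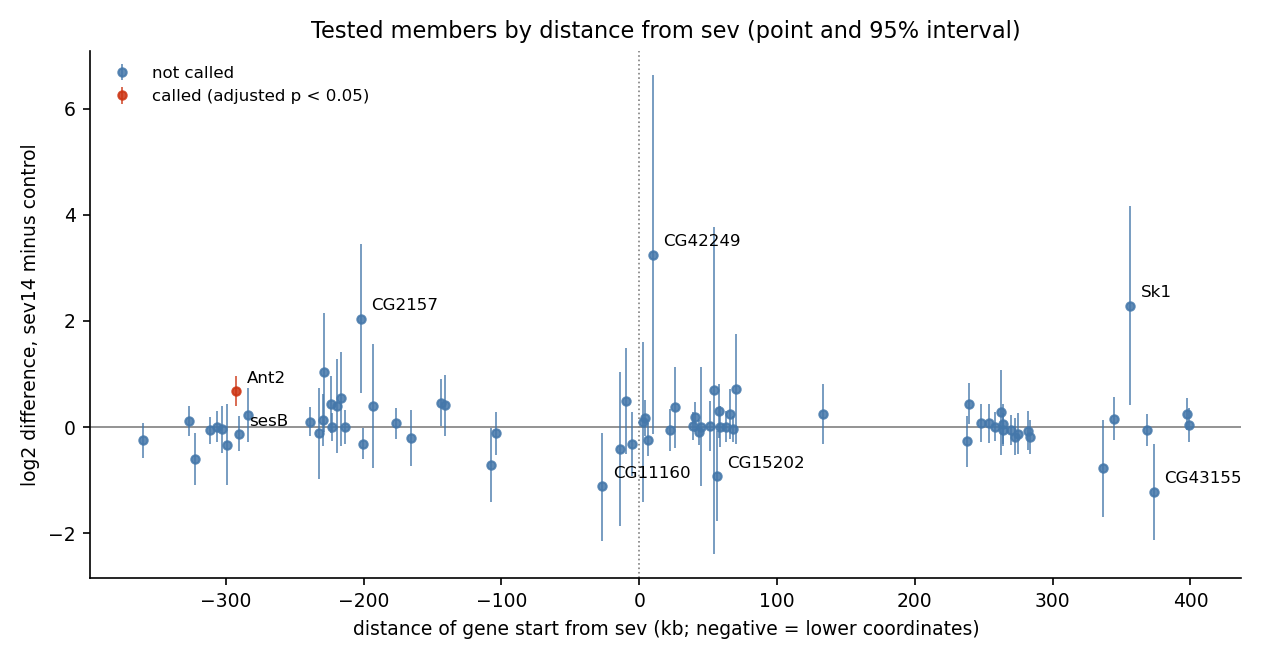
Log2 difference, sev14 minus control, of the 72 tested neighbours against the distance of the gene start from sev in kb, negative at lower coordinates. Points are the fitted difference and bars its 95% interval over 4 libraries per genotype; Ant2, 292.5 kb below sev, is the single called gene, and wide intervals belong to genes with low counts.

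The 1 called neighbour, Ant2 (FBgn0025111, X 10778954 to 10786907, minus strand), encodes an adenine nucleotide translocase, a carrier of the inner mitochondrial membrane that exchanges ADP for ATP. Its normalized counts were 267, 298, 276 and 284 in W1, W2, W5 and W6, and 461, 439, 467 and 443 in S1, S2, S4 and S5. Every sev14 library lay above every control library, and within each genotype the libraries were close together. The means were 281 ± 13.2 and 452 ± 13.7 (SD, n = 4), a log2 difference of 0.68 with a standard error of 0.13 (limma, adjusted p = 0.0138). The call was lost with scaling by total reads, where the difference was 0.54 (limma, adjusted p = 0.0723). It was also lost when W6 and S4 were left out, at 0.67 (adjusted p = 0.0758), and when S2 and S5 were, at 0.72 (adjusted p = 0.079), each fit having 6 libraries. With a block by column number, a pairing that the labels do not state, the call was lost too, at 0.67 (limma, adjusted p = 0.121). In a bulk retina sample, a change in the number of cells of a type and a change in RNA per cell cannot be told apart.

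The neighbouring gene sesB (FBgn0003360, X 10780893 to 10786958, minus strand) encodes the other adenine nucleotide translocase of the fly and overlaps Ant2 in the genome. The 2 genes share a 102-base first exon at X 10786806 to 10786907, wholly 5′ untranslated, which the reference annotation gives to 1 of 3 Ant2 transcripts and to 2 of 5 sesB transcripts on the same strand. Another sesB transcript has a first exon of 153 bases that contains all of these 102. Reads in the shared bases cannot be assigned to one of the genes by position alone. Ant2 also shares 28 exonic bases with CG15211 on the opposite strand, and the sources used here do not say whether reads were counted by strand. The normalized counts of sesB were 10254, 9611, 12096 and 12934 in W1, W2, W5 and W6, and 10336, 9019, 11491 and 10112 in S1, S2, S4 and S5. The genotypes overlapped in part, with W5 and W6 above every sev14 library and S2 below every control library. The log2 difference was -0.13 (limma, adjusted p = 0.761). Ant2 made up 2.54%, 3.01%, 2.23% and 2.15% of the Ant2 and sesB counts together in the control libraries, and 4.27%, 4.64%, 3.90% and 4.19% in the sev14 libraries. The mean share was 2.48% ± 0.391 in the control and 4.25% ± 0.302 in sev14 (SD, n = 4), higher in all 4 sev14 libraries (exact permutation test, 2-sided, p = 0.0286, the smallest that 70 arrangements allow). This share rests on the same Ant2 counts as the call and is no second line of evidence.

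**Figure D2:**
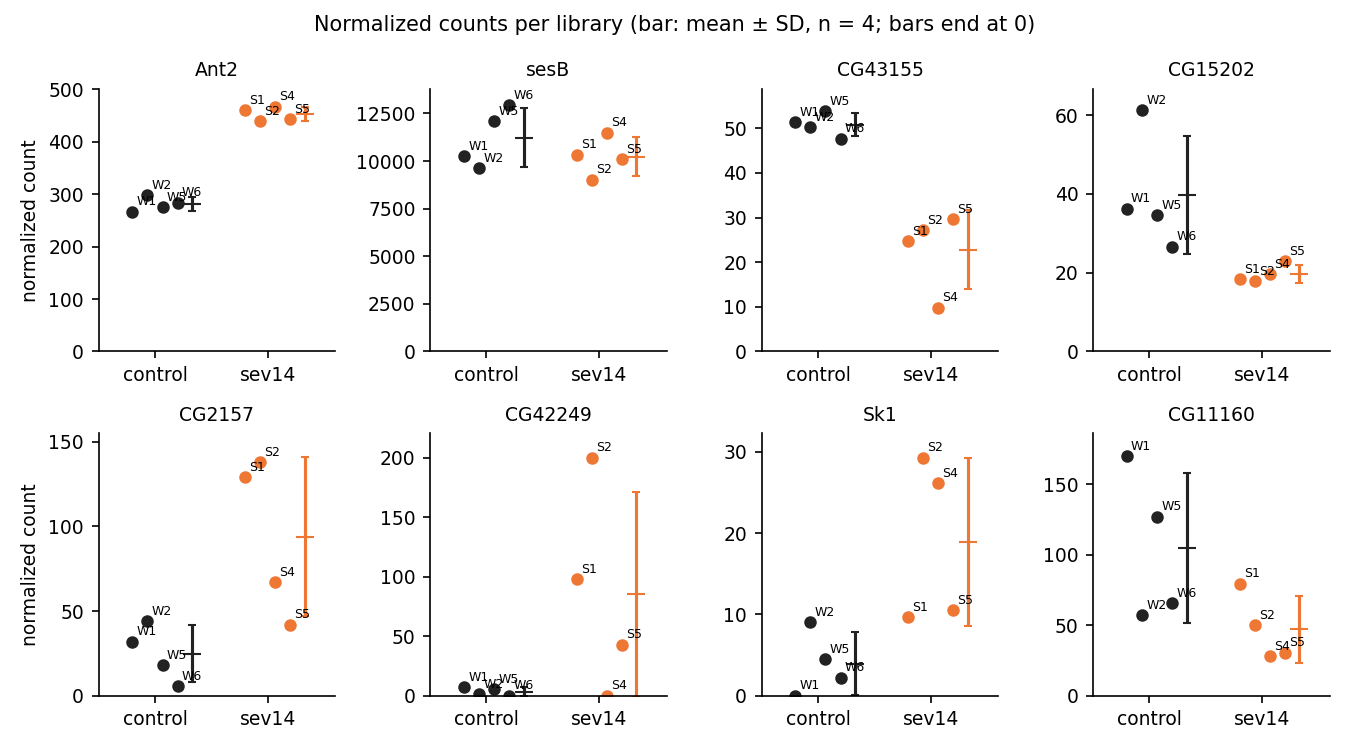
Normalized counts in each library for 8 neighbours of sev, with the control in black and sev14 in orange, and bars showing the mean ± SD over 4 libraries. Ant2 separates the genotypes with little spread, sesB overlaps, and the other 6 are the 3 uncalled genes with the largest differences in each direction. Among these, CG42249 runs from 0 in S4 to 200 in S2 within sev14, and S4 is the lowest library of CG43155, at 9.81.

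The other mitochondrial genes of the interval were close to 0 difference. Hsp60, a chaperonin that folds proteins in the mitochondrial matrix, stood at 4927 ± 834 and 4770 ± 986 normalized counts (SD, n = 4), a log2 difference of -0.05. Tim8, a small chaperone of the intermembrane space, and CG11752 (NdufV3), a subunit of respiratory complex I, had log2 differences of -0.07 and 0.06. The mitochondrial group therefore had 1 called gene of 5, with a median log2 difference of -0.05. These role groups, like those that follow, were put together after the values had been seen. Over all genes tested, 4.21% were called and 16.7% had an unadjusted p under 0.05. Groups this small cannot be set apart from these shares, and no group was tested as a set.

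The genes that start nearest to sev did not pass the test. Below sev, the log2 differences were -0.32 for CG15203 at 4.9 kb, 0.49 for CG1537 at 9.4 kb, -0.41 for CG1545 at 13.9 kb and -1.12 for CG11160 at 26.7 kb. CG11160 is now named SmydA-4, one of a family of SET and MYND domain proteins. Its normalized counts were 170, 57.3, 127 and 65.5 in the control libraries W1, W2, W5 and W6 and 79.5, 50.2, 27.8 and 30.5 in S1, S2, S4 and S5. The sev14 libraries tended lower, but S1 lay above W2 and W6 (limma, adjusted p = 0.238). Above sev, Vago, a secreted protein of the antiviral response, CG2076 and CG2061 start within 6.2 kb and had log2 differences of 0.09, 0.17 and -0.24, none called. The exons of these 3 genes lie inside an annotated antisense RNA, CR45604, and the sources used here do not say whether reads were counted by strand.

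The largest fitted difference belonged to CG42249 (X 11096273 to 11108148, plus strand), 10.0 kb above sev. Its normalized counts were 7.08, 1.00, 5.60 and 0 in W1, W2, W5 and W6, and 97.8, 200, 0 and 42.9 in S1, S2, S4 and S5. Of the sev14 libraries 3 lay well above the control and S4 had no reads, below 3 of the control libraries. The log2 difference was 3.25 with a 95% interval from -0.14 to 6.64 (limma, adjusted p = 0.32). Without S4 it was 4.89 and passed the test (limma, adjusted p = 0.0179), as it did with DESeq2 on all libraries (4.63, adjusted p = 0.00663). Without S2 it was 2.34 (limma, adjusted p = 0.497), without S2 and S5 1.63 (limma, adjusted p = 0.741), and with edgeR 4.54 (adjusted p = 0.125). In the authors' deposited table its adjusted p was 0.158. All 3 annotated transcripts of CG42249 start inside an annotated copy of the transposable element HMS-Beagle (X 11096053 to 11103097), and it was the 1 neighbour that shared exonic bases with such an element. The annotation holds 10 transposable elements that start in the interval, of 912 on X. These are elements of the reference genome, and which of them the w[1118] or w[*] sev[14] stock carries was not analysed here.

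Among the remaining uncalled genes, Sk1 and CG2157 had the largest differences upward. Sk1 encodes sphingosine kinase, and its normalized counts were 0, 9.04, 4.48 and 2.22 in the control and 9.67, 29.3, 26.2 and 10.5 in sev14, in library order. The genotypes did not overlap but lay within 1 normalized count of each other at W2 and S1, and the log2 difference was 2.29 (limma, adjusted p = 0.187). CG2157, 202.2 kb below sev, stood at 31.9, 44.2, 17.9 and 5.55 in the control and 129, 138, 67.0 and 42.0 in sev14. Here S5 lay just under W2, and the log2 difference of 2.04 missed the threshold (limma, adjusted p = 0.117) while it passed with DESeq2 (1.91, adjusted p = 0.0301). CG2157 shares 11.2% of its exonic bases with CG1637 on the opposite strand, and CG1637 went the other way, with 2286, 2542, 2453 and 2439 in the control and 1887, 1590, 2284 and 2136 in sev14 (log2 difference -0.31, limma, adjusted p = 0.251).

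Downward, CG43155 had the largest difference, and CG15202 followed after CG11160. CG43155, 373.5 kb above sev, stood at 51.4, 50.2, 53.8 and 47.7 in W1, W2, W5 and W6, and at 24.7, 27.2, 9.81 and 29.6 in S1, S2, S4 and S5. The control libraries were within a narrow band and all sev14 libraries were below it, S4 furthest. The log2 difference was -1.22 (limma, adjusted p = 0.144). CG15202, 56.2 kb above sev, stood at 36.3, 61.3, 34.7 and 26.6 in the control and 18.3, 17.8, 19.6 and 22.9 in sev14, which did not overlap (log2 difference -0.92, limma, adjusted p = 0.248). The last of the 11 genes with an unadjusted p under 0.05 were CG2145 at 0.46 (adjusted p = 0.276) and C901, an EGF-repeat protein, at -0.71 (adjusted p = 0.294), which like CG1637 were named after their values were seen.

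The interval holds well-known genes of signalling and cell architecture, and none of them was called. Dishevelled (dsh), the cytoplasmic transducer of Wnt and planar polarity signals, stood at 963 ± 101 and 927 ± 102 normalized counts (SD, n = 4), a log2 difference of -0.05 with a 95% interval from -0.34 to 0.23. Hopscotch (hop), the Janus kinase of the fly, stood at 796 ± 163 and 720 ± 80.8 (log2 difference -0.13, interval -0.51 to 0.26). Discs large (dlg1), a scaffold of septate junctions and synapses, stood at 4119 ± 344 and 3658 ± 636 (log2 difference -0.18, interval -0.50 to 0.14). With the potassium channel Ork1 and Vago, this group of 5 had a median log2 difference of -0.05 and no member at an unadjusted p under 0.05.

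None of the genes grouped under the cytoskeleton or RNA handling was called. The microtubule-depolymerizing kinesin Klp10A, the dynein chain Dlic, the kinesin-II subunit Kap3, the unconventional myosin Myo10A and the spindle midzone protein feo had log2 differences from -0.10 for Klp10A to 0.41 for Myo10A, with a median of 0.07 over the 5. Myo10A ranged from 3173 in W2 to 7259 in W5 within the control, wider than the difference between the genotype means. The 7 genes of RNA, nuclear transport and chromatin ranged from -0.27 for l(1)10Bb, a splicing factor, to 0.23 for Imp, an mRNA-binding protein, with a median of 0.01. Ran, the GTPase of nuclear transport, had a log2 difference of 0.01, whose sign turned in 8 of the alternatives. None of these 12 genes had an unadjusted p under 0.05.

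Secretion, trafficking and autophagy genes numbered 8, with 0 called by limma and 2 at an unadjusted p under 0.05. These were Rph, a Rab effector of regulated secretion, at -0.60 (limma, adjusted p = 0.187), and CG1657 (Gapvd1), a regulator of Rab5, at 0.44 (limma, adjusted p = 0.232), both named after their values were seen. Rph stood at 962, 798, 722 and 839 in the control and 404, 489, 513 and 866 in sev14, where S5 alone reached the control level. Without S5 it was called lower, at -0.82 (limma, adjusted p = 0.0225). The autophagosome protein Atg8a, the signal peptidase subunit Spase25 and the signal recognition particle receptor Gtp-bp had log2 differences of 0.01, 0.03 and 0.19. Of the 6 metabolic enzymes and protein modifiers none was called and 1, Sk1, had an unadjusted p under 0.05. Raspberry (ras), an inosine monophosphate dehydrogenase of guanine nucleotide synthesis that shares only its abbreviation with the Ras GTPases, was at 0.12. Glutamine synthetase 2 (Gs2) was at -0.78 (limma, adjusted p = 0.388), with 337, 645, 380 and 350 in the control and 269, 555, 139 and 160 in sev14, so that the libraries overlapped.

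**Figure D3:**
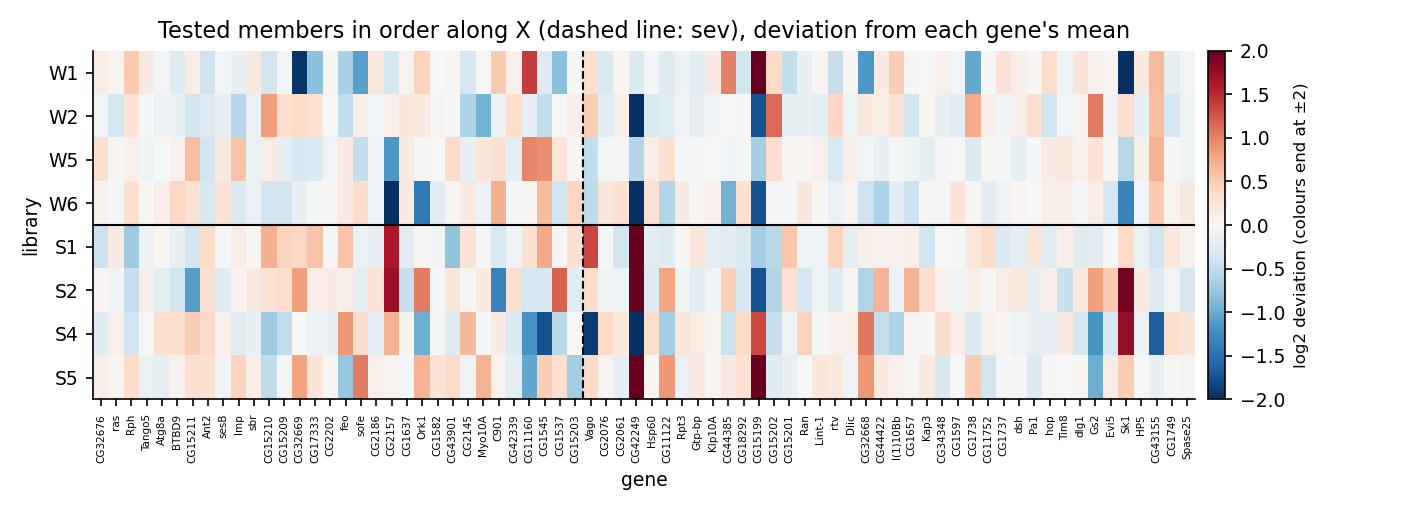
Log2 deviation of each tested neighbour from its own mean over the 8 libraries, with genes in order along X, libraries in rows and the position of sev as a dashed line. Colours end at deviations of 2 in either direction; the strongest colours belong to single low genes such as CG42249, Sk1 and CG15199.

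Per library, the median deviation of the 72 genes from their own means lay between -0.05 in W2 and 0.06 in S2, so no library moved the interval as a block. Per length of annotated exons, sesB was the most abundant of the 70 neighbours with a length, at 5350 normalized counts per kb averaged over all libraries, followed by CG15209 at 4206 and Ran at 2152. Ant2 stood at 255 per kb and Sk1 was the lowest at 4.01 per kb.

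By distance from sev, the calls on X were 1 of the 72 tested genes within 400 kb and 41 of the 1504 tested beyond. The counts below stand beside 2.73% called by limma and 13.9% at an unadjusted p under 0.05 in the rest of X. The nearest bins hold few genes. Within 100 kb, limma called 0 of 23 tested genes, with 2 at an unadjusted p under 0.05; edgeR called 0 and DESeq2 called 1. Between 100 and 200 kb it called 0 of 8, with 2 at an unadjusted p under 0.05 and 0 by either other tool. Between 200 and 400 kb it called 1 of 41 (2.44%) and between 400 and 800 kb 1 of 67 (1.49%), inaF-D at a log2 difference of 1.28. Between 800 and 1600 kb it called 7 of 84 (8.33%), 2 higher and 5 lower, and over the alternatives this percentage ranged from 3.57 to 8.33, the lowest without W2 or without W6. The 2 nearest of these were sicily, 805.4 kb above sev, at 1017 ± 242 in the control and 229 ± 35.8 in sev14 (log2 difference -2.13, limma, adjusted p = 0.000241), and CG12643, 807.2 kb below sev, at 3272 ± 406 and 1242 ± 200 (SD, n = 4; log2 difference -1.40, limma, adjusted p = 0.00056). Between 1600 and 3200 kb 7 of 249 genes were called (2.81%), and beyond that 26 of 1104 (2.36%). Over the alternatives the percentage ranged from 0 to 4.35 within 100 kb, 0 to 4.88 at 200 to 400 kb, 0 to 2.99 at 400 to 800 kb, 0.803 to 5.24 at 1600 to 3200 kb and 1.36 to 5.83 beyond, and without W5 or S1 it was 1.2 at 1600 to 3200 kb. DESeq2 called 2, 2, 7, 13 and 64 genes in the 5 bins from 200 kb outward. The difference between these percentages was not tested.

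**Figure D4:**
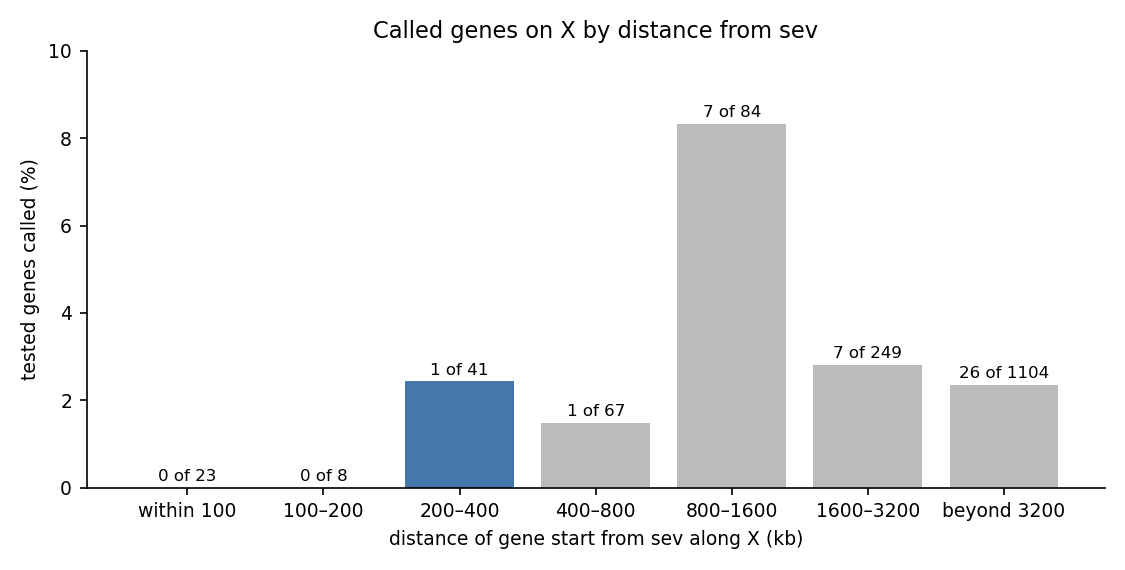
Percentage of tested protein-coding genes on X that were called (limma, Benjamini-Hochberg adjusted p under 0.05), by distance of the gene start from sev in kb, with the counts written above the bars. Blue bars are the 72 neighbours and grey bars the rest of X; the highest bar, 7 of 84 genes, lies 800 to 1600 kb from sev, outside the 400 kb interval.

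At the edges of the interval, the last tested gene inside was CG32676 at 360.3 kb below sev (log2 difference -0.25) and Spase25 at 399.0 kb above it (0.03). The first tested genes outside were CG2111 at 413.8 kb below (2.16, limma, adjusted p = 0.55) and CG33235 at 400.2 kb above (1.21, adjusted p = 0.72), both low in counts and not called. A window of the same width around w, leaving out w, held 2 called genes of 45 tested (4.44%).

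The other 14 of the 86 neighbours were below the filter. Of these, 6 were at 0 in every library: CG12637, antdh, CG15200, CG15198, CG11756 and sisA, a gene that counts X chromosomes in the early embryo. The other 8 had means up to 2.97, the highest being Rab9Fb, with no library above 15.1. The lowest gene that passed the filter was CG15199 at a mean of 6.23.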

How the data were processed

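The deposited table holds, per gene and library, a signal: normalized counts that the authors made by dividing gene counts by 1 factor per library. The submitters' processing notes name cutadapt 1.9.1, DESeq2 1.32.0, FastQC 0.11.4, RSEM 1.2.31, HISAT2 2.0.3 and the builds dm6 and BDGP6. The authors' deposited log2 fold change, score and p-value per gene were used only for comparison. Between 99.98% and 100% of values were whole multiples of 1 read within 0.05 reads, so whole reads were recovered.

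Genes with a mean of at least 5 were tested over the whole table, 2-sided, with limma 3.58.1 (R 4.3.3) and an intensity trend. The scale was log2(normalized count + 1), which understates changes of low genes. A gene was called at a p-value under 0.05 after Benjamini-Hochberg adjustment over 10192 genes. The comparison used all 4 libraries per genotype. Columns were assigned to genotypes by the letters of their names, which do not carry the sample titles' replicate numbers. Alternatives were TMM scaling, recomputed size factors, total reads, pseudocounts of 0.5 and 5, a filter of 20 or none, array weights, DESeq2 1.42.0 and edgeR 4.0.16 applied to recovered reads, a block by column number, windows of 200 and 800 kb, the left-out families put back, and leaving out libraries. For the level of sev, the fits without W6 and S4 or without S2 and S5 were added after seeing the data. Tests were checked on simulated counts with known differences, drawn independently for each gene and library. That check does not cover variation that genes share within a library. The members, lists and alternatives were chosen with earlier results of these data known. Named genes were the called members, the 4 nearest on each side, the 5 most abundant, the 3 largest uncalled differences in each direction and a list of known genes of the region; any other gene was named after its values were seen.

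All 86 gene identifiers were looked up in the Ensembl BDGP6.54 annotation, and 84 were found there with the same coordinates. Of these 84, 24 share exonic bases with another annotated gene, and the sources used here do not say whether reads were counted by strand. Floors cover counting error only. Tables were made with Python 3.11.15.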

Additional observations from a re-analysis of the deposited data

Results flagged for a closer look

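A signal appeared in a noncoding gene of the interval that no comparison above uses. CR45204 (X 10794338 to 10796292) was at 0 in all 4 control libraries and at 31.2, 74.3, 5.72 and 0 normalized counts in S1, S2, S4 and S5, a mean of 27.8 ± 33.8 (SD, n = 4). These values rest on 29, 71, 7 and 0 reads. Against a floor of 3 reads over the 4 control libraries together, the sev14 mean was at least 36.0-fold higher (limma, adjusted p = 0.207, not called). S2 carries most of it: without S2, a choice made after seeing the data, the mean was 12.3, at least 15.9-fold higher, and S5 was at 0 like the control libraries. All 1955 bases of CR45204 lie inside exons of Imp on the same strand, and Imp itself stood at 1657 to 3623 in the control and 2109 to 3334 in sev14. No sample stood apart from its group by the gap to its nearest neighbour in any of 52 groups of 4 examined, where chance alone would flag about 2.6. These groups did not cover all tested neighbours of sev, so single libraries may stand apart in other genes. For CG1582, for example, S1, S2 and S4 stood at 588, 600 and 603 normalized counts and S5 at 739.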

How the results depend on the processing

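The 1 higher call among the neighbours (Ant2) and the 0 lower calls kept their numbers under TMM scaling, recomputed size factors, both pseudocounts, no filter, a filter of 20, edgeR, array weights and with the left-out families put back. The count higher was 0 (0%) with scaling by total reads, which moved the median of all genes by -0.14 and the neighbours' median to -0.125, 0 (0%) without S2 and S5, where the neighbours' median was -0.017, 0 of 31 (0%) in a window of 200 kb, 3 (4.17%) with DESeq2 and 2 of 139 in a window of 800 kb. Without W6 and S4 the 1 higher call was CG42249 (4.33, adjusted p = 0.0293) in place of Ant2. Over all genes, total-read scaling gave 178 higher and 268 lower calls against 243 and 186, DESeq2 gave 503 and 344, leaving out S2 and S5 144 and 133, and leaving out W6 and S4 156 and 105. Leaving out 1 library at a time gave 1 to 2 higher calls among the neighbours (2 without S4, where CG42249 was added), 0 to 1 lower (1 without S5, Rph), 1.39% to 2.78% called beside 1.66% to 2.59% of the rest of X, and 142 to 251 higher and 110 to 191 lower over all genes. The median log2 difference then ranged from 0.001 to 0.045 and the median absolute difference from 0.160 (without S5) to 0.222; the latter was 0.246 with no filter and 0.245 in the window of 200 kb. Ant2 kept its sign in all alternatives, with adjusted p from 0.0323 to 0.0468 when 1 library was left out. The cause of these changes was not tested.

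The sources used here do not say that the column numbers pair the samples, and correlations did not settle it. Deviations of same-numbered libraries correlated at 0.087 (W1 and S1), 0.19 (W2 and S2) and 0.063 (W5 and S5). W2, S2 and W5 correlated best with their own number, while W1, S1 and S5 correlated best with another. The highest correlation, 0.387, was between W6 and S4, which have no same-numbered library. With the replicate block by column number, 0 neighbours (0%) were called, Ant2 was at 0.67 (adjusted p = 0.121), and 195 genes were higher and 130 lower overall.

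For the 23 named neighbours other than Ant2, 453 of 481 values kept their sign and call, 4 became calls and 24 turned in sign, all of them uncalled. These were ras at -0.02 (total reads), CG1537 at -0.02 (without S2 and S5), CG1545 at 0.25 (block), 0.11 (without S4) and 0.25 (without W6 and S4), with a range over single libraries left out from -0.73 to 0.11, Vago at -0.05 (total reads), -0.06 (without W5), -0.06 (without W6), -0.34 (without S1), -0.01 (without S2), -0.02 (without S5) and -0.23 (without both S2 and S5), with a range from -0.34 to 0.74, Hsp60 at 0.04 (without W6), 0.02 (without S1), 0.03 (without S2) and 0.03 (without S2 and S5), with a range from -0.18 to 0.04, and Ran at -0.0021 (TMM), -0.13 (total reads), -0.05 (array weights), -0.06 (block), -0.04 (without W1), -0.03 (without W2), -0.14 (without S4) and -0.06 (without W6 and S4), with a range from -0.14 to 0.13. The level of sev ranged from -0.51 to 0.08 when 1 library was left out, the sign turning without S4 (0.08), and leaving out W6 and S4 gave 0.07, leaving out S2 and S5 -0.91. With 17 of the 72 genes under a mean of 100, low genes were bounded loosely.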

Other observations

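Of the protein-coding genes of the interval that the rule left out, v (vermilion, the tryptophan oxygenase of the brown ommochrome pathway) stood at 1925 ± 101 normalized counts in the control and 2297 ± 450 in sev14 (SD, n = 4; log2 difference 0.24, limma, adjusted p = 0.488). Cyp4g15, a cytochrome P450, stood at 2713 ± 407 and 2863 ± 426 (SD, n = 4; log2 difference 0.08, limma, adjusted p = 0.873). Or10a and Gr10a share all their exonic bases and were listed with the same values, at most 10 in any library, and Ir10a was at 0 in every library. Of the 9 noncoding genes of the interval, 5 were at 0 in every library.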
